A study of Mus musculus with 4 samples.

Results

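Solute carriers were examined in splenic Esam dendritic cells (DC) that had lost the transcription factor Runx3, in comparison with cells that kept it. A gene was included when a probe set annotated with its symbol alone, beginning with Slc and a digit, reached a log2 value of 6.5 on at least 1 array, and the brightest such probe set represented the gene. This gave 170 genes in 43 numbered families, of 364 Slc symbols on the array and 9894 genes tested. The other 194 symbols stayed below 6.5 on every array, and 3 probe sets that carry several symbols were left out. Of the 170, 157 reached the limit on all 4 arrays and 13 on fewer. The limit lay inside a run of close values, with Slc27a2 (6.60) and Slc25a27 (6.61) just inside it and Slc22a18 and Slc2a8 (6.47) just outside. Slc22a18 came nearest, at 6.04 and 6.00 in wt and at 6.36 and 6.49956 in cKO.

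The cells came from 4 mice aged 6 weeks, sorted as CD11c- and MHCII-positive Esam cells with antibodies to Esam, CD4 and CD8 and hybridised to 1 Affymetrix array each. The 2 wt mice are labelled DCRunx3 +/+, and the 2 cKO mice are labelled DCRunx3 -/- and are the product of crossing floxed Runx3 mice to CD11c-Cre mice. Each of 2 litters gave 1 mouse of each genotype, with no treatment. In the cKO the deletion is driven by the CD11c promoter, so any cell with CD11c promoter activity could carry it, and whether the wt littermates carry floxed alleles is not given by the labels. Values are log2 values after robust multichip averaging (RMA), differences are cKO minus wt on that log2 scale, and the error of a difference is its standard error (SE) from limma, with 2 mice per group. The values of both mice of a group are given in the order litter 1, litter 2.

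All 15 markers of Esam DC reached 6.5 on each array, and their mean value was 11.80 and 11.79 in wt and 11.85 and 11.87 in cKO. Of these markers, 8 were higher and 4 lower in cKO without overlap, beside 16.4% and 23.7% of all probe sets. Markers of other cells differed between the arrays. The mean of 12 markers of the cDC1 subset, DC specialised in cross-presentation, was 9.11 and 8.95 in wt and 10.02 and 10.08 in cKO. Of the 12, 10 were higher in cKO past the thresholds given below, beside 0.9% of all probe sets. All 12 also reached 6.5 on each array, so reaching that limit does not by itself identify the sorted cells. The mean of 15 macrophage markers was 8.34 and 8.84 in wt and 9.21 and 9.33 in cKO, while Cd163, Fcgr1 and Marco stayed below 6.5 on all arrays. Monocyte markers (9) averaged 10.05 and 9.92 in wt and 10.66 and 10.71 in cKO, and plasmacytoid DC markers (7) averaged 7.23 and 7.25 in wt and 7.86 and 7.96 in cKO. B cell markers (9) averaged 7.36 and 7.18 in wt and 7.62 and 7.55 in cKO. None of 8 neutrophil and none of 3 erythroid markers reached 6.5 on any array. RNA from a mixed sort cannot separate a change in the number of cells of a type from a change of RNA per cell. The part of these markers in any carrier's difference was not tested. Runx3 itself read 11.37 and 11.51 in wt and 11.47 and 11.45 in cKO, but no source here says whether its probe set covers the deleted part, and the genotype labels were therefore not checked by it. Although the labels call all mice male, Xist was at 12.75 and 12.78 in the wt and cKO of litter 1 and at 5.15 and 5.19 in litter 2, and Y-linked Kdm5d had the opposite pattern, so litter and sex-linked expression cannot be told apart. Of the carriers, 6 lie on the X chromosome and none of them had an unadjusted p under 0.05.

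Solute carriers are membrane proteins that move ions, metals, sugars, amino acids, lipids and nucleotides across the plasma membrane, the endosome and lysosome, the Golgi and the inner mitochondrial membrane. Many work against a gradient by coupling a solute to sodium or protons or by exchanging one solute for another. DC depend on them to take up nutrients, to recycle iron from engulfed cells, to set calcium and zinc signals and to move peptides and nucleosides out of the endolysosome, where antigen is processed. The family numbers follow sequence relation, and a few symbols with the prefix belong to proteins that are not carriers. These are Slc9a3r1 (a scaffold protein), Slc7a6os, Slc4a1ap and Slc2a4rg-ps, and leaving them out changed the median of all members from 0.01 to 0.02.

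To show the start of the genes that differ most, the 250 bases before the RefSeq transcription start (assembly GRCm38.p6) are given for Slc5a5 and Slc8a2, the carriers with the largest differences in each direction, for Slc30a4, a zinc transporter lower in cKO, and for Slc7a11, the cystine-glutamate exchanger. Each reads 5′ to 3′ on the strand of the gene and ends at the base before the start. Capitals mark the metal response element core TGCGCNC in Slc8a2 and Slc30a4 and the amino acid response element TGATGCAAN in Slc7a11, found on either strand. No searched motif was found in the Slc5a5 window, which therefore has no capitals.
Slc5a5, chr8:70892758-70893007, minus strand: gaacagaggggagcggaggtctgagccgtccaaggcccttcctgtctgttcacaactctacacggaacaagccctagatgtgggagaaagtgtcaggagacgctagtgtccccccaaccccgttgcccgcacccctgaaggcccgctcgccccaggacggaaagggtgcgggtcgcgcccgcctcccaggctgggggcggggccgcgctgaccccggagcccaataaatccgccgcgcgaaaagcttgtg
Slc8a2, chr7:16129576-16129825, plus strand: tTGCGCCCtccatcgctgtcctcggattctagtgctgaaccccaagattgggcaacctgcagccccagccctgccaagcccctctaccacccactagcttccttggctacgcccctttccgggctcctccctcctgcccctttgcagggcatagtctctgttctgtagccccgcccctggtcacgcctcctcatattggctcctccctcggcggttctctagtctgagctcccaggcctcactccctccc
Slc30a4, chr2:122702664-122702913, minus strand: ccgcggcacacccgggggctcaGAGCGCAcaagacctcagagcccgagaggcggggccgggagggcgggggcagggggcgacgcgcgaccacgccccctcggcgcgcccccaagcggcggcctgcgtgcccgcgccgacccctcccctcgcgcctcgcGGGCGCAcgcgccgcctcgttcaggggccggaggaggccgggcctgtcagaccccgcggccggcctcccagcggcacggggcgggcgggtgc
Slc7a11, chr3:50443614-50443863, minus strand: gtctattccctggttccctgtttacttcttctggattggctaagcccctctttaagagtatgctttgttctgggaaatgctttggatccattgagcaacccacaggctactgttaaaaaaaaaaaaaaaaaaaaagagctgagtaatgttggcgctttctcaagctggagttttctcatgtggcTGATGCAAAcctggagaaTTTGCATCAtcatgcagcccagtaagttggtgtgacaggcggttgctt

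The motif search covered both strands of these windows and those of Slc7a8 and Slc6a20a. The Runx cores TGTGGT and TGCGGT and the E-box CACGTG, to which Myc and related factors bind, were absent from all 6 windows. The core TGCGCNC lay 249 to 243 bases before the start of Slc8a2 on the gene's strand, and at 228 to 222 and 92 to 86 bases before the start of Slc30a4 on the opposite strand. It was also found 52 to 46 bases before the start of Slc7a8. It is common, in 12.51% of 32851 mouse promoters and in 18.99% of the 179 starts of the 132 carriers that have one in the table. The second form of that core, TGCACNC, was in none of the 6 windows and in 10.4% of all promoters. Slc7a11 held TGATGCAAN at 2 places, 66 to 58 and 48 to 40 bases before the start, once on each strand. This element was added to the search after the data were seen. It was present in 0.785% of all promoters and in 1.676% of carrier starts. No matches overlapped. Either Runx core was present in 18.59% of all promoters and 15.64% of carrier starts. These are matches of letters only.

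Deletion of Runx3 was accompanied by large differences in few carriers. The thresholds of the study's methods, which ask for a change of 1.5-fold or more in either direction and for p no larger than 0.05 in a one-way test without adjustment, were passed by 4 carriers, of which Slc5a5 and Slc7a8 were higher and Slc8a2 and Slc30a4 lower in cKO. That is 2.353% of the 170, against 1.41% of the 18889 probe sets tested (0.9% higher and 0.514% lower). In limma, the moderated test used here, none of the 170 had an adjusted p under 0.05, nor did any probe set of the array (0.0%), and the smallest adjusted p was 0.158 among the carriers and 0.0834 over all. At an unadjusted limma p under 0.05 there were 23 carriers (13.53%, 16 higher and 7 lower), beside 9.38% of all probe sets (4.57% higher and 4.81% lower). In 4 of the 23 (Slc5a5, Slc6a9, Slc12a7 and Slc16a6) both arrays of 1 genotype lay below 6.5, so these entered through the other genotype. Both cKO arrays lay on one side of both wt arrays for 64 carriers (37.65%), 33 higher and 31 lower, beside 40.1% of all probe sets (16.4% higher and 23.7% lower). The median difference of the carriers was 0.01, the range ran from -1.93 to 3.19, and 132 of 170 differed by less than 0.25, while the median of all probe sets was -0.02 and 15188 of 18889 differed by less than 0.25. With 1 probe set per gene in the fit, 42 of 9894 genes (0.424%) had an adjusted limma p under 0.05, with 0.344% of genes higher and 0.0809% lower in cKO, among them Slc5a5 (0.035) and Slc8a2 (0.0345).

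**Figure D1:**
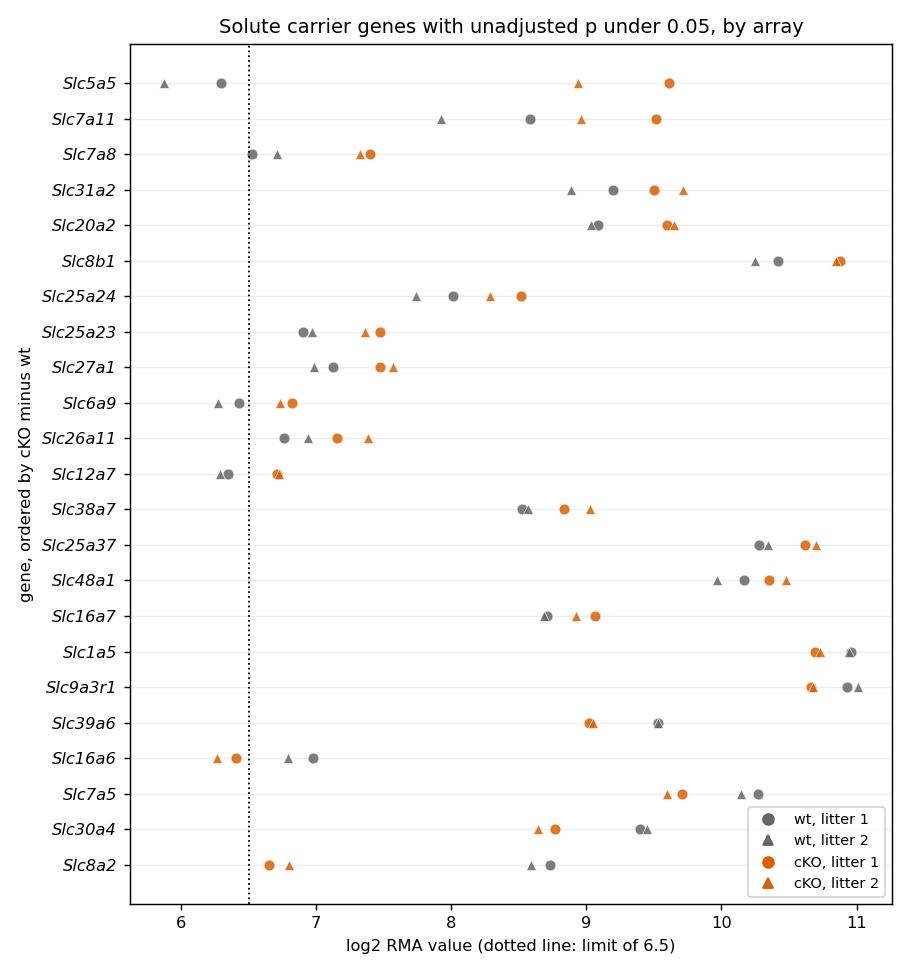
Log2 RMA values of the 23 solute carrier genes with an unadjusted limma p under 0.05, 1 point per array, with wt in grey, cKO in orange, litter 1 as circles, litter 2 as triangles and the limit of 6.5 as a dotted line. Genes are ordered by their difference, from Slc5a5 (3.19, with wt below the limit) at the top to Slc8a2 (-1.93) at the bottom, and in each row the cKO points lie on one side of the wt points.

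Slc5a5 encodes the sodium-iodide symporter, which concentrates iodide in the thyroid by coupling it to sodium. Its value was 6.29 and 5.88 in the wt arrays and 9.61 and 8.94 in the cKO arrays. Both wt arrays were below the limit of 6.5 and both cKO arrays far above it, so the groups did not overlap. Against that limit the cKO mean was at least 6.84-fold higher, a bound that was not tested. The limma adjusted p of 0.158 belongs to the fitted difference of 3.19, which is read against wt values below the limit. The gene passed the filter through its cKO arrays. The study's thresholds were not passed with any 1 array left out, in fits where 1 genotype has a single array and the one-way test has 1 residual degree of freedom, as in the other fits of this kind below. The only other measured member of family 5, the inositol carrier Slc5a3, read 8.16 and 8.53 in wt and 7.93 and 8.93 in cKO, which overlap.

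Slc8a2 encodes NCX2, a plasma membrane exchanger that extrudes calcium in return for sodium. Its value was 8.73 and 8.59 in wt and 6.65 and 6.80 in cKO. The gap between the genotypes was far wider than the gap between mice of a genotype. The difference was -1.93 (SE 0.11, 95% interval -2.22 to -1.64, limma adjusted p = 0.158), a 3.82-fold lower value in cKO, and it was -2.08 in litter 1 and -1.79 in litter 2. It passed the study's thresholds with any 1 array left out and with litter as a block. Slc8a1, the exchanger of the same kind that is widespread in myeloid cells, had values of 10.02 and 9.98 in wt and 9.85 and 9.74 in cKO. This difference of -0.21 (SE 0.09, limma unadjusted p = 0.0808) was small although the groups did not overlap, and a second, dimmer probe set of Slc8a1 differed by -0.21 as well (limma unadjusted p = 0.471). Slc8b1, the mitochondrial sodium-calcium exchanger, went the other way, with 10.42 and 10.25 in wt and 10.88 and 10.85 in cKO. Its difference was 0.53 (SE 0.10, limma adjusted p = 0.296). The 3 measured calcium exchangers thus did not overlap between the groups, 2 of them lower and 1 higher, beside 23.7% and 16.4% of all probe sets.

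Other calcium genes were less affected than Slc8a2. Of 17 measured genes of calcium entry, release and mitochondrial uptake, 1 passed the study's thresholds, the ATP-gated channel P2rx7, with 8.87 and 8.94 in wt and 9.61 and 9.58 in cKO (difference 0.69, limma adjusted p = 0.209). The related channel P2rx4 differed by 0.46 and the store-operated channel Orai1 by 0.27, while the inositol trisphosphate receptor Itpr3 differed by -0.29 and the mitochondrial uniporter regulator Micu2 by -0.28. At an unadjusted limma p under 0.05 there were 4 higher and 2 lower of the 17, where 4.57% and 4.81% of all probe sets were, and the median of the list was 0.02 beside -0.02 over all probe sets.

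Zinc carriers fall into exporters and vesicle loaders (family 30) and importers into the cytosol (family 39). Slc30a4, which moves zinc into vesicles, read 9.40 and 9.45 in wt and 8.77 and 8.64 in cKO. The mice of a genotype lay close together and the groups were well apart. The difference was -0.72 (SE 0.09, limma adjusted p = 0.215), a 1.65-fold lower value, and was seen in both litters (-0.63 and -0.81). It did not pass the study's thresholds with litter as a block, nor without wt replicate 1 (difference -0.75) or wt replicate 2 (-0.69). No other member of family 30 passed, and 5 of its 6 members lay between -0.04 and 0.07. The plasma membrane exporter Slc30a1 (0.06), and Slc30a5 (0.00) and Slc30a7 (0.07), which supply zinc to the secretory pathway, were among them.

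Of 9 zinc importers of family 39, 8 had a negative difference, beside 55.13% of all probe sets, and 4 of these had groups that did not overlap, beside 23.7% of all probe sets lower without overlap. The largest was in Slc39a6, which was 9.53 and 9.53 in wt and 9.02 and 9.05 in cKO. Litter 1 minus litter 2 was -0.0035 in wt and -0.03245 in cKO. The difference of -0.49 (SE 0.08, limma adjusted p = 0.256) was below the fold of 1.5 that the study required. Slc39a3 differed by -0.16, Slc39a7, which releases zinc from the secretory pathway, by -0.15, and Slc39a10 by 0.07. The median of the family was -0.07. Among the genes that respond to zinc, the metallothionein Mt1 read 8.02 and 8.26 in wt and 8.49 and 8.76 in cKO, a difference of 0.48 (limma adjusted p = 0.472). Mt2 differed by 0.45 with groups of 6.97 and 7.51 against 7.75 and 7.63, and the zinc sensor Mtf1 by 0.07. None of the 4 measured genes of this list passed the study's thresholds.

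Amino acid carriers included both higher and lower members. Slc7a8 and Slc7a5 encode LAT2 and LAT1, light chains that exchange large neutral amino acids and that pair with the same heavy chain, Slc3a2. Slc7a8 was at 6.53 and 6.71 in wt and at 7.40 and 7.32 in cKO. The wt arrays were just above the limit of 6.5 and both cKO arrays were higher than both wt arrays. The difference was 0.74 (SE 0.11, limma adjusted p = 0.223), or 1.67-fold, and it was lost to the study's thresholds with litter as a block and with any 1 array left out (0.65 to 0.83). Slc7a5 was at 10.27 and 10.15 in wt and at 9.71 and 9.59 in cKO. All arrays were well above the limit and the groups did not overlap. Its difference of -0.56 (SE 0.10, limma adjusted p = 0.278), a 1.47-fold lower value, was just short of the study's fold, and was -0.57 in litter 1 and -0.55 in litter 2. The heavy chain Slc3a2 itself read 11.63 and 11.41 in wt and 11.66 and 11.55 in cKO, with a difference of 0.09 and overlapping groups.

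Slc7a11 (xCT), also a partner of Slc3a2, imports cystine in exchange for glutamate and supplies cysteine for glutathione. It was at 8.58 and 7.93 in wt and at 9.51 and 8.96 in cKO. Litter 1 was higher than litter 2 in both genotypes, by 0.65 and 0.55, and each cKO mouse was above its littermate. The difference of 0.98 (SE 0.31, 1.98-fold, limma adjusted p = 0.476) was 0.93 in litter 1 and 1.03 in litter 2, and it passed the study's thresholds when litter was a block but not in the one-way test without it. With the limma p (0.0307) in place of the one-way p it would also pass. Slc6a20a, a carrier of proline and related imino acids, was at 8.50 and 7.98 in wt and at 9.08 and 8.60 in cKO. Litter 1 was again the higher in both genotypes, and the differences within litters were 0.58 and 0.63. Its difference of 0.61 (SE 0.26, limma unadjusted p = 0.0753) would not pass with the limma p. The block test was passed by 4 carriers, namely Slc7a11, Slc6a20a, Slc5a5 and Slc8a2, beside 0.715% of all probe sets. Of all probe sets, 0.487% passed it higher and 0.228% lower in cKO.

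The remaining amino acid carriers differed by less. The glutamine carrier Slc1a5 read 10.96 and 10.94 in wt and 10.69 and 10.73 in cKO, a difference of -0.24 (SE 0.08, limma adjusted p = 0.509). In family 38, Slc38a7, which exports glutamine from the lysosome, was at 8.52 and 8.57 in wt and at 8.83 and 9.03 in cKO (difference 0.39, limma adjusted p = 0.438). Of its relatives at the plasma membrane, Slc38a1 differed by -0.19 and Slc38a2 by 0.14. A second probe set of Slc38a1 gave -0.37 (limma unadjusted p = 0.0503). The lysosomal arginine sensor Slc38a9 differed by 0.06 and the lysosomal proton-coupled carrier Slc36a1 by 0.21. Slc7a1, Slc7a6 and Slc7a7, carriers of cationic amino acids, differed by -0.02, 0.04 and 0.19 with overlapping groups. The glycine carrier Slc6a9, with both wt arrays below the limit (6.43 and 6.27) and cKO at 6.82 and 6.73, was at least 1.21-fold higher in cKO, and the taurine carrier Slc6a6 differed by -0.10. Over the 20 members of families 1, 3, 7, 36, 38 and 43, which leave out family 6 and hold the non-carrier Slc7a6os, the median difference was 0.08. At an unadjusted limma p under 0.05, 3 were higher and 2 lower (15% and 10%), beside 4.57% and 4.81% of all probe sets.

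Of 15 listed genes of the response to amino acid shortage, 8 were measured and none of these passed a threshold. The others, Asns, Chac1, Trib3, Phgdh, Vldlr, Gpt2 and Stc2, stayed below 6.5 on every array and were not tested. All 8 measured members of that list had a negative difference, as had 55.13% of all probe sets, of which Psat1 was the largest (-0.30) and Atf4, the factor that drives the response, read 9.09 and 9.21 in wt and 9.08 and 9.06 in cKO (difference -0.07). None passed the study's thresholds or had an unadjusted limma p under 0.05, and the list's median was -0.11. Likewise none of 19 genes of mTORC1 and lysosomal nutrient sensing passed, with a median of -0.04.

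Among mitochondrial carriers, family 25 held the most members, 34, and none passed the study's thresholds. Its median was 0.04, 29 of the 34 differed by less than 0.25, and 10 had groups that did not overlap, 5 in each direction (29.41%, beside 40.1% of all probe sets). The exceptions by unadjusted limma p were Slc25a23, Slc25a24 and Slc25a37, which were higher in cKO. Slc25a23 and Slc25a24 are calcium-regulated carriers that exchange ATP-magnesium for phosphate. Slc25a23 was at 6.90 and 6.97 in wt and at 7.47 and 7.36 in cKO (difference 0.48, SE 0.09, limma adjusted p = 0.303). Slc25a24 was at 8.01 and 7.74 in wt and at 8.51 and 8.29 in cKO (difference 0.52, SE 0.15, limma adjusted p = 0.441). In both genes the groups did not overlap. The third carrier of this kind, Slc25a25, was at 8.03 and 7.63 in wt and at 7.56 and 7.31 in cKO, a difference of -0.40 (limma unadjusted p = 0.091). The ADP/ATP carriers Slc25a4 and Slc25a5 differed by -0.17 and 0.13, the phosphate carrier Slc25a3 by 0.01 and the aspartate-glutamate carrier Slc25a12 by -0.20. Slc25a5 has 3 probe sets, which differed by 0.13, 0.15 and 0.14.

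Phosphate carriers of the plasma membrane, family 20, were both measured. Slc20a2 read 9.08 and 9.03 in wt and 9.59 and 9.65 in cKO. The arrays of a genotype agreed within 0.06. The difference of 0.56 (SE 0.09, 1.48-fold, limma adjusted p = 0.231) lay just under the study's fold. Slc20a1 was at 10.83 and 10.42 in wt and at 10.89 and 10.72 in cKO, with overlapping groups and a difference of 0.18.

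No carrier of iron or heme passed the study's thresholds. Of those described here, Slc48a1 and Slc25a28 were chosen after their values were seen, and Slc39a14 was not named by a rule. The ferroportin gene Slc40a1, the iron exporter of macrophages that recycle red cells, was at 8.60 and 10.20 in wt and at 9.97 and 10.58 in cKO. The wt mouse of litter 1 was far below the other 3, and the groups overlapped. The difference of 0.87 (SE 0.59, limma adjusted p = 0.75) was 0.08 without wt replicate 1, and 1.37 in litter 1 against 0.38 in litter 2. Slc48a1, a heme transporter of the endolysosome, was at 10.17 and 9.97 in wt and at 10.35 and 10.48 in cKO (difference 0.35, limma adjusted p = 0.491). The mitochondrial iron importer Slc25a37 (mitoferrin-1) was at 10.28 and 10.34 in wt and at 10.62 and 10.70 in cKO (difference 0.35, limma adjusted p = 0.41), and its relative Slc25a28 differed by 0.20 with overlapping groups. Slc11a2, which moves ferrous iron across membranes, was at 8.39 and 8.07 in wt and at 8.45 and 8.45 in cKO, a difference of 0.22. Slc39a14, an importer of zinc that also carries iron, differed by -0.07.

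Of the 12 measured macrophage markers, 10 had their lowest value in the wt mouse of litter 1 and 2 in the other wt mouse. The share of all probe sets that were lowest in that array was not counted. Slc40a1 was also lowest there, but its groups overlapped. Of the 12 markers, 11 were higher in cKO without overlap, beside 16.4% of all probe sets. At an unadjusted limma p under 0.05, 8 were higher, beside 4.57% of all probe sets. A link between Slc40a1 and these markers was not tested. The examples given here were chosen after their values were seen. Hmox1, which degrades heme, was at 9.50 and 10.79 in wt and at 10.71 and 10.94 in cKO. Cd5l, a secreted protein of splenic macrophages, was at 6.60 and 7.97 in wt and at 7.98 and 8.10 in cKO. In both genes and in Slc40a1 the wt mouse of litter 1 was the lowest and the other 3 lay closer together. Vcam1 (9.53 and 10.35 in wt, 10.43 and 10.91 in cKO) and Mertk (8.06 and 8.82 in wt, 9.14 and 9.40 in cKO) followed a like course. Spic, the factor required by the red pulp macrophages that handle iron, did not, with 9.70 and 9.47 in wt and 10.31 and 10.33 in cKO (difference 0.73), and it was the single gene of 13 iron-handling genes past the study's thresholds. All 12 measured macrophage markers had a positive difference, as had 44.87% of all probe sets, and their median was 0.75. Of the 12, 3 were higher past the study's thresholds, beside 0.9% of all probe sets. The transferrin receptor Tfrc was at 10.63 and 10.59 in wt and at 10.15 and 10.28 in cKO (difference -0.39, limma adjusted p = 0.379). The ferritin chains Fth1 and Ftl1 differed by 0.04 and 0.13.

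**Figure D2:**
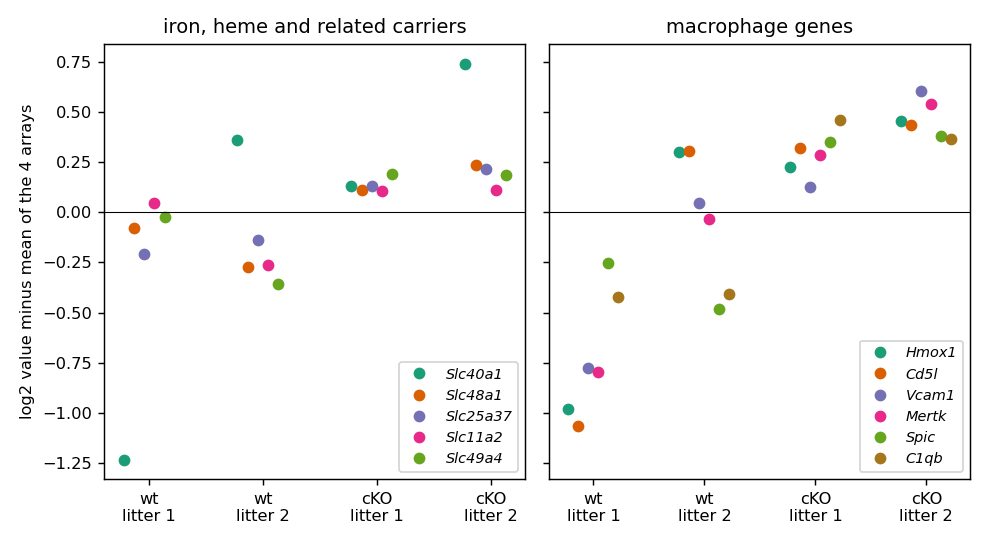
Log2 value minus the mean of the 4 arrays, 1 point per gene and array. The left panel holds the iron and heme carriers Slc40a1, Slc48a1, Slc25a37 and Slc11a2, and also Slc49a4, described with the endolysosomal carriers. The right panel holds 6 of the 12 measured macrophage markers, chosen after their values were seen. Slc40a1, Hmox1 and Cd5l were lowest in the wt mouse of litter 1 (8.60, 9.50 and 6.60), and Slc48a1 and Slc25a37 were higher in both cKO mice than in both wt mice.

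The copper carrier Slc31a2, which lies in the endolysosomal membrane, was at 9.20 and 8.88 in wt and at 9.50 and 9.72 in cKO. The difference of 0.57 (SE 0.15, limma adjusted p = 0.433) was 0.30 in litter 1 and 0.83 in litter 2. Slc31a1, the copper importer at the cell surface, differed by 0.16. Together the 23 metal carriers had a median difference of -0.03. At an unadjusted limma p under 0.05, 2 were higher and 2 lower (8.696% each), beside 4.57% and 4.81% of all probe sets.

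Carriers of the endolysosome connect antigen breakdown to the cytosol, and family 15, with 3 measured members, had no member past a threshold and a median of -0.31. Slc15a4, a histidine and peptide carrier required for endosomal Toll-like receptor responses, was at 11.21 and 11.37 in wt and at 11.23 and 11.42 in cKO. The difference of 0.03 was smaller than the gap between litters. Its relative Slc15a3 was at 9.44 and 8.98 in wt and at 9.01 and 8.80 in cKO (difference -0.31), with overlapping groups, and leaving out wt replicate 1 gave -0.08 while leaving out wt replicate 2 gave -0.54. Slc15a2, a peptide carrier of the plasma membrane, differed by -0.57 (SE 0.34), and nearly all of it came from litter 2 (-1.24, against 0.09 in litter 1). The lysosomal nucleoside carrier Slc29a3 differed by 0.23, the sialic acid exporter Slc17a5 by 0.31 and Slc49a4 by 0.38. In these 3 both cKO arrays lay above both wt arrays, as for 16.4% of all probe sets. Of 12 genes of the endosomal Toll-like receptor axis, 1 passed the study's thresholds, Tlr3 (8.97 and 9.11 in wt, 10.01 and 10.02 in cKO, difference 0.98), which is also a cDC1 marker. Tlr8 differed by 0.67, Tlr7 by 0.31 and Irf7 by -0.43, and the median of the list was -0.02. None of 16 subunits of the vacuolar proton pump, which acidifies these compartments, passed or had an unadjusted limma p under 0.05, and their median was 0.04.

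Family 35, which includes the nucleotide sugar carriers of the Golgi and endoplasmic reticulum, kept to a narrow range, from -0.23 to 0.25. None of 19 passed any threshold used here, 18 differed by less than 0.25 and the median was 0.00. Slc35a1, which supplies CMP-sialic acid, was at 8.52 and 8.59 in wt and at 8.28 and 8.38 in cKO (difference -0.23, limma unadjusted p = 0.0646). Slc35f6 differed by 0.25, Slc35a3 by -0.15 and Slc35a4 by -0.01. In 15 of the 19 the difference had opposite signs in the litters, 13 of them negative in litter 1 and positive in litter 2 and 2 the reverse, and the family's median was -0.14 in litter 1 and 0.14 in litter 2.

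Glucose carriers were close between genotypes, whereas members of the monocarboxylate family 16 differed in both directions. The glucose carriers Slc2a1 (10.34 and 9.91 in wt, 10.03 and 10.19 in cKO) and Slc2a3 (11.49 and 11.40 in wt, 11.55 and 11.47 in cKO) differed by -0.01 and 0.07 with overlapping groups. Slc2a6, a hexose carrier of lysosomes, differed by -0.24, most of it in litter 1 (-0.44 against -0.05). The lactate exporter Slc16a3 differed by -0.16, the monocarboxylate carrier Slc16a7 was at 8.71 and 8.69 in wt and at 9.06 and 8.93 in cKO (difference 0.30, limma adjusted p = 0.479), and Slc16a14 differed by -0.38 (-0.10 without wt replicate 1 and -0.66 without wt replicate 2). In family 16, 4 of 6 members had groups that did not overlap (3 lower and 1 higher), beside 40.1% of all probe sets (23.7% lower and 16.4% higher). None of the 6 passed the study's thresholds. Slc16a6 had both cKO arrays below the limit of 6.5 (6.41 and 6.26) and wt at 6.97 and 6.79, and was at least 1.30-fold lower in cKO. The glucose-6-phosphate carrier Slc37a2 differed by 0.20 and the sugar carrier Slc50a1 by 0.28. Of 19 genes of glycolysis and lactate, only the hexokinase Hk3 passed the study's thresholds (6.52 and 6.63 in wt, 7.35 and 7.22 in cKO, difference 0.71), while Hk2 differed by -0.38 (limma adjusted p = 0.398). The largest difference of the list by size was in the lactate dehydrogenase chain Ldhb (-0.89, limma adjusted p = 0.714), whose value was above 6.5 in wt replicate 1 alone (7.07 and 5.63 in wt, 5.70 and 5.22 in cKO), with overlapping groups. The list's median was 0.02.

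Ion and lipid carriers closed the set. The fatty acid transporter Slc27a1 was at 7.13 and 6.99 in wt and at 7.47 and 7.57 in cKO (difference 0.46, limma adjusted p = 0.349), and the anion carrier Slc26a11 was at 6.76 and 6.94 in wt and at 7.16 and 7.38 in cKO (0.42, limma adjusted p = 0.47). The potassium-chloride carrier Slc12a7, with wt at 6.35 and 6.29 below the limit and cKO at 6.71 and 6.73, was at least 1.16-fold higher. Its sodium-dependent relative Slc12a2 differed by 0.07 and Slc12a3 by -0.19. The scaffold Slc9a3r1 was at 10.93 and 11.01 in wt and at 10.67 and 10.68 in cKO (difference -0.30, limma adjusted p = 0.455). The endosomal sodium-proton exchangers Slc9a7 and Slc9a9 differed by 0.08 and -0.10. In family 22, whose median was 0.12, the carnitine carrier Slc22a5 differed by 0.12, Slc22a21 by 0.28 and Slc22a17 by -0.14, and no member had an unadjusted limma p under 0.05. The bicarbonate carrier Slc4a8 (-0.07) and Slc43a3, which moves purine bases (0.25), had overlapping groups.

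**Figure D3:**
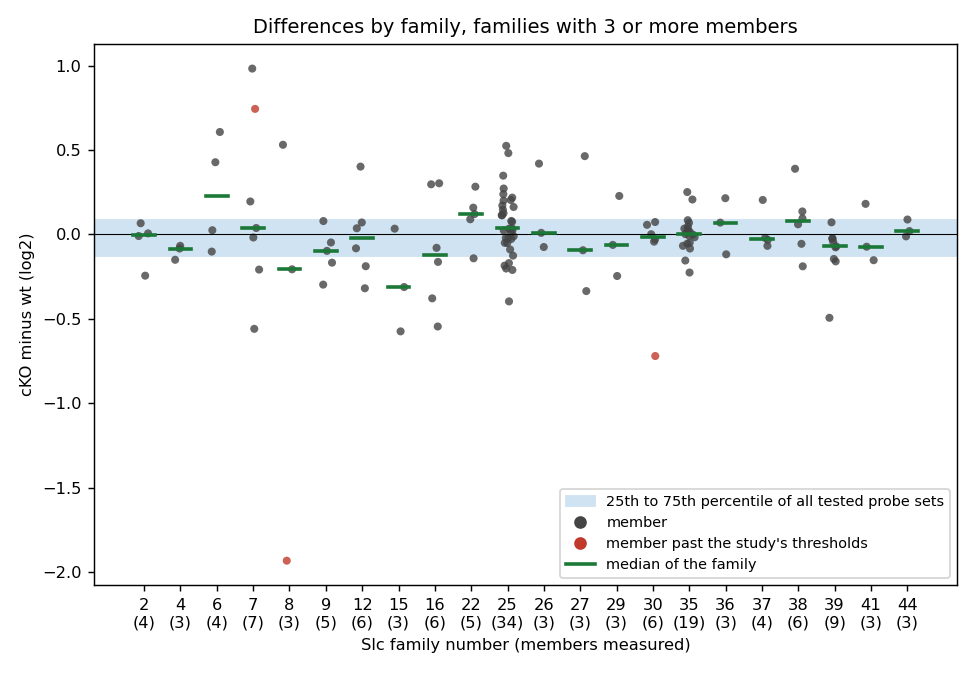
Difference (cKO minus wt, log2) of each solute carrier in families with 3 or more members, with the family medians as green bars, members past the study's thresholds in red and the range from the 25th to the 75th percentile of all tested probe sets shaded. The numbers under the axis are the family numbers with the members measured. In the 10 families with 5 or more members the medians lay between -0.12 (family 16) and 0.12 (family 22), and Slc8a2 at -1.93 stood apart. Family 5, which holds Slc5a5, has 2 members and is not drawn.

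Transporters whose symbols do not begin with Slc and a digit were compared as background to these results. Of 26 measured ABC transporters, which are driven by ATP, 1 passed the study's thresholds, Abcd2, with wt at 6.22 and 6.13 and cKO at 7.19 and 6.95, at least 1.49-fold higher. The cholesterol exporter Abca1 was at 6.17 and 6.44 in wt and at 6.91 and 7.15 in cKO, at least 1.44-fold higher. The list of ABC transporters had 4 higher and 1 lower at an unadjusted limma p under 0.05, beside 4.57% and 4.81% of all probe sets. Its median was -0.03. None of 10 P-type ion pumps passed (median -0.04). The organic anion transporters (Slco) are solute carriers too, but no digit follows Slc in their symbols, so the carriers counted above leave them out. Of the 2 measured, Slco3a1 was at 8.47 and 8.17 in wt and at 9.30 and 9.43 in cKO (difference 1.05, limma adjusted p = 0.215). It passed the study's thresholds, and Slco5a1 differed by -0.51 with overlapping groups. Myc, a regulator of nutrient carriers in growing cells, was at 10.44 and 10.30 in wt and at 9.23 and 9.11 in cKO (difference -1.20, limma adjusted p = 0.158). Runx1, a relative of Runx3, was at 10.18 and 10.11 in wt and at 10.86 and 10.92 in cKO (difference 0.75, limma adjusted p = 0.202).

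The median gap between the 2 wt mice was 0.186 over the 170 carriers and 0.163 over all probe sets, and between the 2 cKO mice 0.0914 and 0.0962. Both mice of litter 1 were above both mice of litter 2 for 44 carriers (25.88%, beside 20.33% of all probe sets), and the reverse held for 17 of 170, beside 15.61% of all probe sets. The urea transporter Slc14a1 was an example, at 11.81 and 11.76 in the wt and cKO of litter 1 and at 11.32 and 11.14 in litter 2, with a genotype difference of -0.12. Over the carriers the median of cKO minus wt was -0.07 in litter 1 and 0.11 in litter 2, beside -0.05 and 0.01 over all probe sets. The sign differed between litters in 72 of 170 carriers (42.35%) and in 7998 of 18889 probe sets (42.34%).

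**Figure D4:**
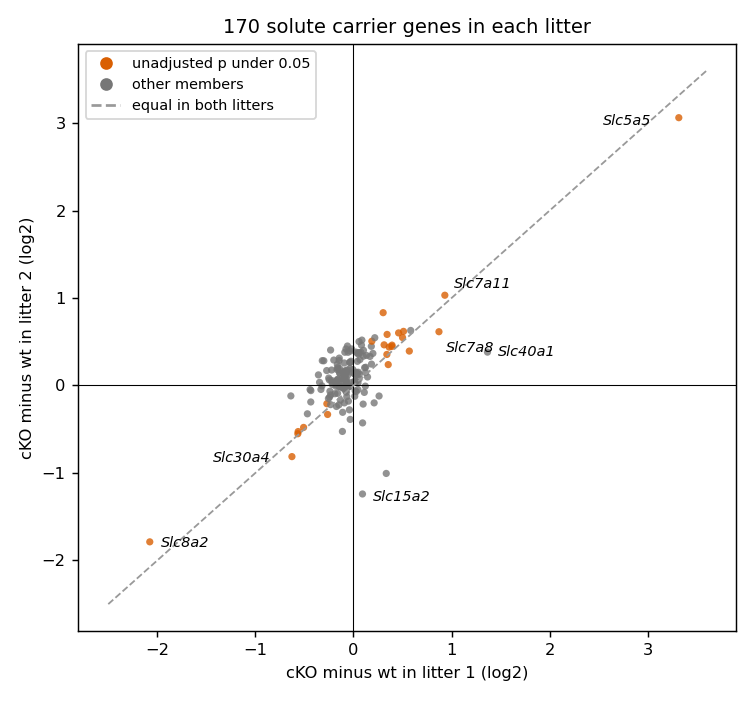
Difference (cKO minus wt, log2) in litter 1 on the horizontal axis and in litter 2 on the vertical axis for the 170 carriers, with the 23 of unadjusted limma p under 0.05 in orange and a dashed line where both litters are equal. Slc5a5 (3.32 and 3.06, with wt below the limit) and Slc8a2 (-2.08 and -1.79) lie at the ends near the line, while Slc40a1 (1.37 and 0.38) and Slc15a2 (0.09 and -1.24) lie away from it.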

How the data were processed

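RNA of 4 sorted samples was measured on Affymetrix arrays. The authors deposited log2 values that they had computed by RMA with GC correction in Partek (the processing notes name mm9 and no versions), normalized between arrays. The methods name an exon ST 1.0 array, whereas the annotation given for the platform describes a gene-level array. The array medians lay between 6.58 and 6.62, and the number of arrays limits the precision. All 4 columns matched a sample by name. Detection values were not used here.

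Of 35399 probe sets, the 18889 with a value of at least 6.5 on 1 or more arrays were tested with limma 3.58.1 in R 4.3.3 (lmFit then eBayes on cKO minus wt, two-sided tests, 2 residual and 2.2 prior degrees of freedom, Benjamini-Hochberg adjustment over all tested probe sets, threshold 0.05). Beside it stood the study's thresholds, a change of 1.5-fold or more and p no larger than 0.05 in a one-way test without adjustment. P-values refer to the spread between 2 mice per group. The labels state the litter, so a second fit took it as a block, and deviations from the group means correlated between littermates over all tested probe sets (r = 0.27). For a gene whose probe set lay below 6.5 on both arrays of a group, the fold was computed against 6.5. The procedure was tested on simulated data. Symbols came from the platform annotation, and all 170 matched RefSeq by gene ID. Promoters were read from RefSeq (GRCm38.p6), and the amino acid response element was added after the data were seen.

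The carriers, companion lists, markers and alternatives were chosen with earlier results of these data known. Named genes were those past the study's thresholds, filled to 5 per direction by the smallest limma p; in families of 5 or more the brightest member, the 2 with the smallest p and 1 in the opposite direction; 25 carriers with a known part in these cells or listed by the study, of which 2 are not analysed here; and up to 3 genes per companion list. This named 48 carriers, and 30 more were chosen after their values were seen, as were some companion genes. Slc39a14, described with the iron carriers, was outside these rules and is not in the counts.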

Additional observations from a re-analysis of the deposited data

How the results depend on the processing

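The 4 carriers past the study's thresholds were the same 4 without a filter on low values, with a filter on the mean, after centring or quantile normalization of the arrays, with the mean over probe sets and with 1 probe set per gene. The count was 5 with the limma p in place of the one-way p or with a mean-variance trend, with Slc7a11 added to the 4. With litter as a replicate block it was again 4, of which 2 were shared (Slc7a8 and Slc30a4 lost, Slc7a11 and Slc6a20a gained). With 1 array left out, which leaves 1 residual degree of freedom and a lone array assumed to vary like the other genotype, the count was 2 to 3. Slc5a5 and Slc7a8 passed in none of these 4 fits, Slc30a4 not without either wt array, Slc8b1 passed without wt replicate 1, Slc16a14 without wt replicate 2 and Slc20a2 without cKO replicate 1. The number not overlapping was 134 of 364 symbols without the filter, and 90 to 140 with 1 array left out, where fewer arrays have to be apart. The number with an adjusted limma p under 0.05 was 2 with 1 probe set per gene and 0 in the other fits. The fit with 1 probe set per gene estimates the variances anew and adjusts over fewer features, and the part of each was not tested. Quantile normalization turned 33 higher and 31 lower carriers without overlap into 40 and 26.

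With 1 array left out, larger differences also moved by over 1.5 times, to between -0.99 and -0.16 for Slc15a2, -0.60 and -0.20 for Slc25a25, 0.34 and 0.87 for Slc6a20a, 0.65 and 1.31 for Slc7a11, 0.15 and 0.47 for Slc17a5, 0.03 and 0.53 for Slc22a21, 0.22 and 0.55 for Slc49a4, 0.06 and 0.50 for Slc50a1 and 0.12 and 0.38 for Slc35f6.

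Some differences near 0 changed sign. Centring gave -0.0031 for Slc25a3 and -0.0123 for Slc30a5, and quantile normalization 0.00244 for Slc2a1 and 0.0103 for Slc35a4. With 1 array left out, the range was -0.22 to 0.20 for Slc2a1, -0.0221 to 0.20 for Slc3a2, -0.35 to 0.21 for Slc4a8, -0.41 to 0.59 for Slc5a3, -0.25 to 0.0428 for Slc6a6, -0.15 to 0.11 for Slc7a1, -0.13 to 0.20 for Slc7a6, -0.00742 to 0.40 for Slc7a7, -0.0571 to 0.20 for Slc12a2, -0.42 to 0.19 for Slc14a1, -0.0576 to 0.13 for Slc15a4, -0.0208 to 0.38 for Slc20a1, -0.12 to 0.14 for Slc25a3, -0.0428 to 0.29 for Slc25a5, -0.0134 to 0.42 for Slc25a28, -0.0242 to 0.14 for Slc30a1, -0.12 to 0.12 for Slc30a5, -0.0710 to 0.0555 for Slc35a4, -0.0202 to 0.43 for Slc37a2, -0.0587 to 0.18 for Slc38a9 and -0.0580 to 0.56 for Slc43a3. The cause was not tested.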
